A study of Mus musculus with 4 samples.

Results

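Neuronal genes in brown preadipocytes were followed here as 46 named genes of growth cones, synapses, GABA receptors, neuronal cytoskeleton and the REST repressor, out of 18193 genes that had a probe set with 1 gene symbol. They were read from 130 of the 34945 such probe sets on the array. The 4 arrays came from immortalized mouse brown preadipocytes of a mixed C57/BL6-129 strain, the precursor cells of brown fat grown in culture, whose gene for the histone methyltransferase G9a carried floxed alleles in every sample. G9a knockout cells had received Cre, the recombinase that cuts out floxed DNA, and control cells, labelled wild type, had received the vector. Each group held 2 arrays, numbered 1 and 2. The labels do not give how Cre was delivered, whether a line was a single clone or how the arrays of a group were cultured, and p-values measure only the spread between these arrays. The X-inactivation transcript Xist was high on both arrays numbered 1 and low on both numbered 2, so the arrays of a group did not share 1 origin.

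The members were chosen with earlier results of the same knockout and control arrays known. The knockout minus control values of members are therefore given as a description, with no test. At its brightest probe set Ehmt2, the G9a gene, gave 953 and 912 signal units in knockout cells and 2682 and 2688 in control cells. Array medians were 78 and 52.5 signal units in knockouts and 67.2 and 50.6 in controls.

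G9a places methyl groups on lysine 9 of histone H3, a mark of silent genes. REST is a zinc finger repressor that keeps neuronal genes off in cells that are not neurons. It binds a DNA element in or near those genes and recruits corepressors, among them CoREST, encoded by Rcor1, and G9a. Growth cone proteins such as GAP43 lie under the membrane of growing axon tips, and stathmins bind tubulin and promote microtubule turnover there.

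Of the 46 genes, 22 were above background, which was set on each array at the 95th percentile of 86 probe sets for olfactory, vomeronasal and taste receptors, genes not expected in these cells. That level was 85.7 and 36.7 signal units on knockout arrays 1 and 2 and 58.6 and 36.5 on control arrays 1 and 2, and the brightest probe set of a gene had to exceed it on both arrays of a group. Of all genes on the array, 62.2% did. The 24 genes below it had a median of 23 signal units, and 8 of them passed the level on a single array or on 1 array of each group. Below it were the core synaptic genes Snap25, Syt1, Syp and Syn2, the neurofilament genes Nefl, Nefm and Nefh, the neuronal RNA-binding genes Elavl2 and Elavl3, the brightest probe set of Elavl4, the axonal genes Mapt and Dcx and the neurosecretory genes Scg2, Chga and Vgf. Snap25, which encodes a core protein of vesicle fusion, read 5.2 and 3.4 in knockouts and 1.9 and 8.3 in controls.

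Among those above background, Stmn1, Basp1, Marcks, Nes and Ncam1 were bright on every array. Stmn1, which encodes the widely expressed stathmin, read 12834 and 11548 in knockouts and 11799 and 12120 in controls. Marcks and Ncam1 are also known from many cell types outside the nervous system. The preadipocyte and mesenchymal markers Col1a1, Vim, Pdgfrb and Itgb1 were above background on all arrays, as were 8 of the 9 such markers with a probe set. The exception was Zfp423, with 2.1 and 3.8 in knockouts and 2.5 and 3 in controls.

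**Figure D1:**
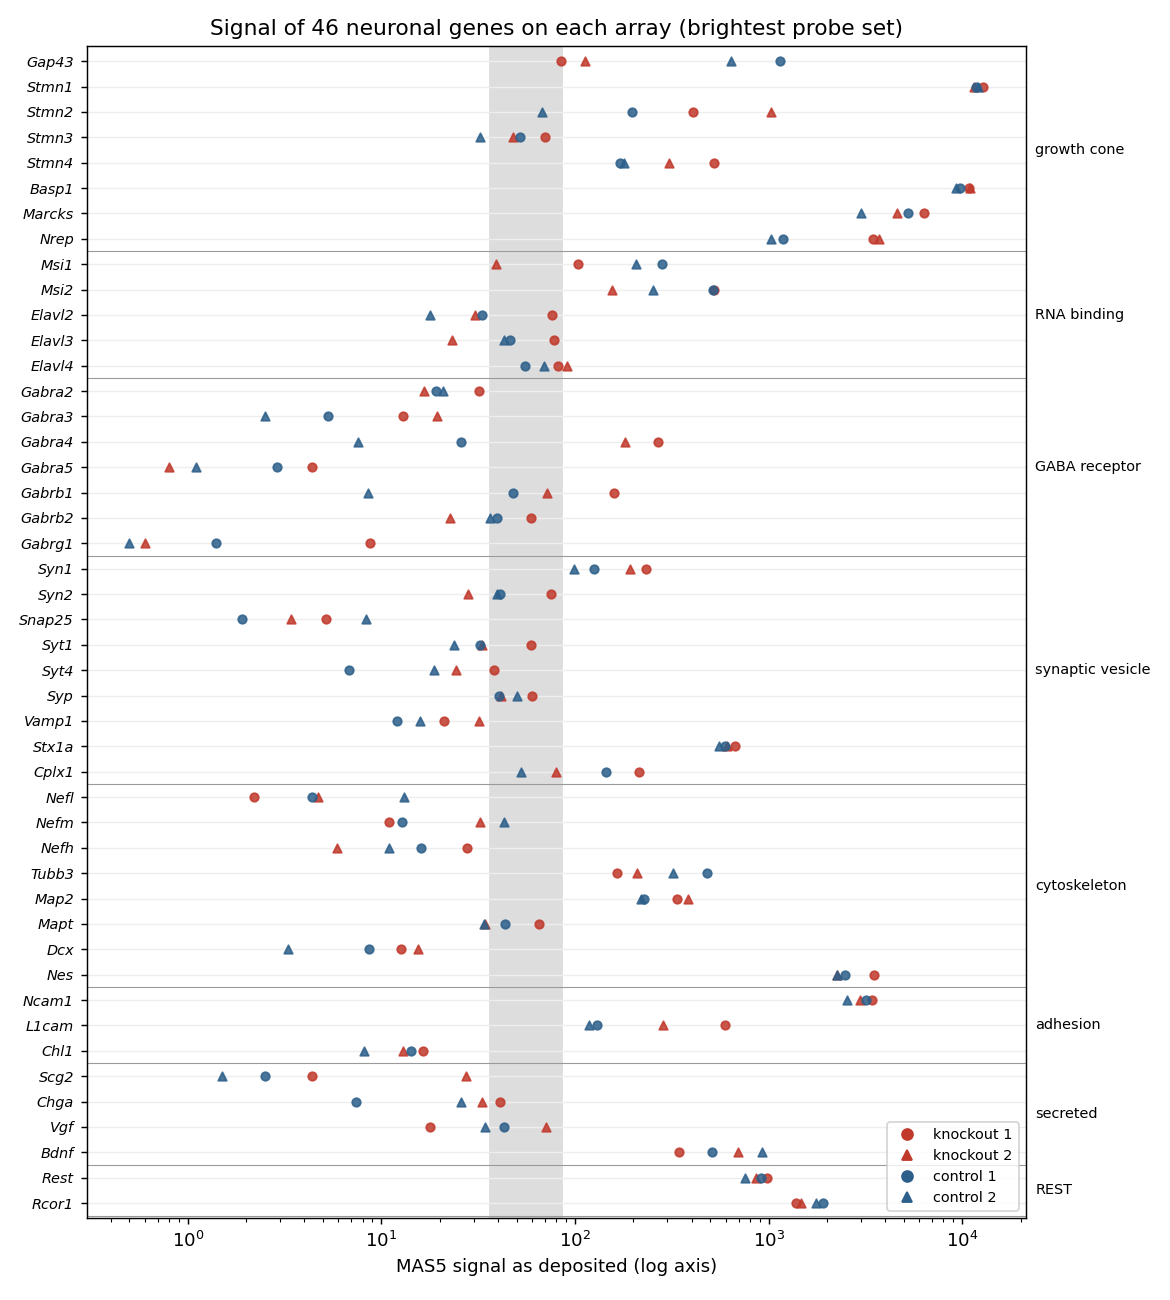
Deposited signal (log axis) of the brightest probe set of each of the 46 neuronal genes, grouped by role, with 1 point per array (red, knockout; blue, control; circles, number 1; triangles, number 2). The grey band spans the background levels of the 4 arrays, from 36.5 to 85.7 signal units, and 24 genes did not exceed background on both arrays of a group.

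Differences below are knockout minus control on a log2(signal + 16) scale after quantile normalization, with standard errors (SE) from limma over 2 arrays against 2. This scale understates the change of dim genes. A level filter kept genes at or above the 50th percentile of mean level, which 22 members passed. They are not the same 22 as above: Gabrb1 was above background without passing the filter, and Elavl4 passed the filter while its brightest probe set was not above background. A dimmer Elavl4 probe set, with 57.4 and 49.2 in knockouts and 61.3 and 71.2 in controls, exceeded background on both control arrays. Of the 22 past the filter, 5 were at least 2-fold higher in knockouts with no overlap of the groups, against 2.18% of the 11079 genes past that filter, and 3 were at least 2-fold lower, against 0.569%, or 2.75% for both directions together. The groups did not overlap for 14 members, against 31.1% of all genes, and 5 were at least 2-fold apart the same way within both numbers, against 1.76%. Since the choice of members used these values, nothing is read from those counts. The members' median difference was 0.21, and 0.23 and 0.21 within numbers 1 and 2, beside 0.007 over all 11079 genes. The lowest was -3.0 and the highest 2.86. Just inside the 2-fold limit were Tubb3 at -1.08 and Stmn4 at 1.11, and just outside it were Syn1 at 0.77 and Map2 at 0.60.

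Gap43 was the member furthest below its controls. It read 84.6 and 112.7 signal units in knockouts, against 1142 and 643 in controls. The first knockout value lay just under that array's background and the second above it, and both lay far below the controls. The log2 difference was -3.0 ± 0.38 (SE), or 8.0-fold lower, with -3.75 and -2.25 within numbers 1 and 2. Basp1 and Marcks encode the other membrane-bound growth cone proteins that, like GAP43, organize actin under the membrane, and they did not share this difference. Basp1 read 10871 and 10954 in knockouts and 9696 and 9283 in controls, a difference of 0.16 ± 0.11. Marcks read 6326 and 4601 in knockouts and 5221 and 2986 in controls, a difference of 0.44 ± 0.34 with overlapping groups. All 7 Marcks probe sets above background had positive differences, from 0.16 to 0.53.

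The stathmin family split by member. Stmn2, which encodes the neuronal stathmin SCG10 of growth cones, read 407 and 1034 in knockouts and 196.6 and 67.9 in controls. Every knockout array exceeded every control array, and the arrays within each group were far apart. Its difference was 2.22 ± 0.56, with 0.99 and 3.45 within numbers 1 and 2, and its second probe set gave 1.43. Stmn4, another neuronal stathmin gene, read 521 and 307 in knockouts and 172 and 179 in controls (1.11 ± 0.30, with 1.56 and 0.66 within numbers). Stmn1 differed by -0.06 ± 0.11 and its groups overlapped. Stmn3 was not above background. The sizes of Stmn2 and Stmn4 went opposite ways over the numbers: number 2 held the larger difference in Stmn2 and number 1 in Stmn4.

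Nrep, which encodes a small neuronal regeneration protein also known from wound fibroblasts, was high in all cells and higher in knockouts. It read 3463 and 3720 in knockouts and 1185 and 1026 in controls. The arrays within each group lay close together, and the difference of 1.71 ± 0.20 was 1.61 and 1.80 within the numbers. Its second probe set gave 1.52.

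Musashi genes encode RNA-binding proteins of neural stem cells that block translation of their targets. Msi1 read 103.8 and 39 in knockouts, against 282 and 207 in controls, and both knockout values were only slightly above background. Its difference was -1.73 ± 0.33, or 3.31-fold lower, with -1.47 and -1.99 within numbers. The 2 other Msi1 probe sets were at background on all arrays, so a single probe set carries this value. Msi2 read 525 and 155 in knockouts and 514 and 253.5 in controls. Its groups overlapped, and of its 5 probe sets above background 1 was higher and 4 were lower, from -0.61 to 0.47.

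**Figure D2:**
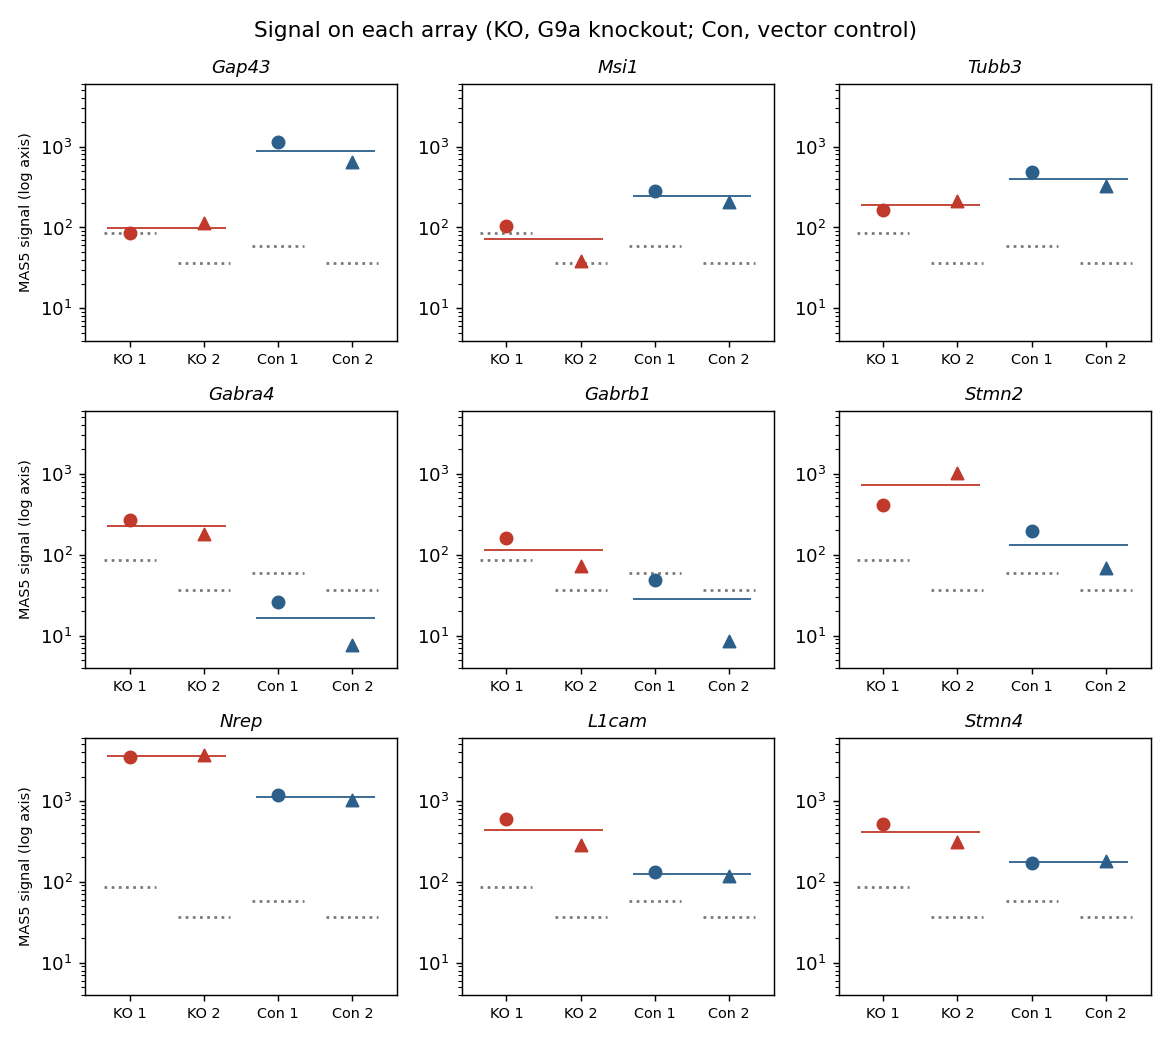
Deposited signal (log axis) on each array for 9 neuronal genes, 2 knockout arrays (red) left of 2 control arrays (blue), with lines at the group means and dotted lines at each array's background. Gap43, Msi1 and Tubb3 sit lower in both knockout arrays, the other 6 genes sit higher, and both control arrays lie under background for Gabra4 and Gabrb1.

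GABA-A receptors are chloride channels of 5 subunits that carry fast inhibition in the brain. Of 7 subunit genes among the members, 2 were above background, on both knockout arrays and on neither control array. Gabra4 read 267 and 181 in knockouts and 25.7 and 7.6 in controls, where both arrays lay under background. The control level is thus only bounded, and Gabra4 was at least 3.56-fold higher in knockouts, counting each control array at its background level. On the measured values its difference was 2.86 ± 0.35, with 2.65 and 3.06 within numbers. A second Gabra4 probe set, under background on every array, read 36.2 and 14.5 in knockouts and 4.9 and 1.6 in controls. Gabrb1 read 158 and 71.7 in knockouts and 48 and 8.5 in controls, at least 1.87-fold higher, and its measured difference was 1.60, with 1.32 and 1.88 within numbers. Its 3 other probe sets were under background on every array, with differences from 0.05 to 0.12.

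Gabra4 and Gabrb1 are neighbours in a cluster of 4 GABA-A subunit genes on chromosome 5. In gene order the cluster held Gabrg1, Gabra2, Cox7b2, Gabra4 and Gabrb1. Gabrg1, Gabra2 and Cox7b2 were under background on every array. Gabrg1 read 8.7 and 0.6 in knockouts and 1.4 and 0.5 in controls, and Gabra2 read 32 and 16.6 in knockouts and 19.2 and 20.9 in controls. Past Gabrb1, Commd8 read 2114 and 2058 in knockouts and 2039 and 1668 in controls (0.19 ± 0.21, limma adjusted p = 0.999). Atp10d read 60.2 and 93.3 in knockouts and 70.2 and 64.5 in controls, and its groups overlapped. Of these 7 genes, Gabra4 and Gabrb1 were above background on both knockout arrays and on neither control array.

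**Figure D3:**
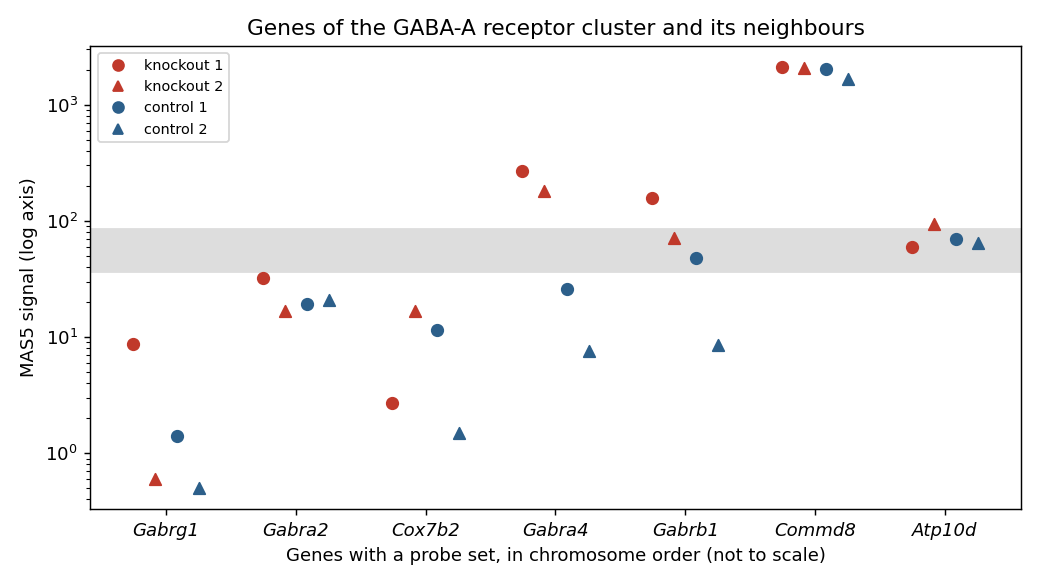
Deposited signal (log axis) of genes with a probe set in the GABA-A receptor cluster and the 2 genes past it, in chromosome order, with 4 points per gene (red, knockout; blue, control). The grey band spans the background levels of 36.5 to 85.7 signal units, and Gabra4 and Gabrb1 have knockout points at 267 and 181 and at 158 and 71.7.

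RefSeq annotation of GRCm38.p6 held promoter windows for 30 of the 46 genes, 54 windows in all, and none for Gap43, Stmn2, Msi1 or Stmn4 was at hand. The annotated start of Gabra4 lies 387 bases from the first of 2 annotated starts of Gabrb1, on opposite strands, so that the annotated transcripts overlap head to head. The second Gabrb1 start lies 41624 bases from the Gabra4 start. The array does not tell which start was used. The 250 bases before the start of Gabra4 and the first start of Gabrb1 are shown because these neighbours differed together, and those of Syn1 and Tubb3 because each holds a match to the left part of the REST element. Capitals mark matches to CAGCACC or GGACAG, the 2 parts of that element, on either strand.
Gabra4, chr5:71658309-71658558 (- strand): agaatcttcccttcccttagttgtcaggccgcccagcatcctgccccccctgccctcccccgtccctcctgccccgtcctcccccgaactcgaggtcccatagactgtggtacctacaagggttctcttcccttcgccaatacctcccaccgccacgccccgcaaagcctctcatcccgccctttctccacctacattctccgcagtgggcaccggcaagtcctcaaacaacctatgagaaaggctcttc
Gabrb1, chr5:71657671-71657920 (+ strand): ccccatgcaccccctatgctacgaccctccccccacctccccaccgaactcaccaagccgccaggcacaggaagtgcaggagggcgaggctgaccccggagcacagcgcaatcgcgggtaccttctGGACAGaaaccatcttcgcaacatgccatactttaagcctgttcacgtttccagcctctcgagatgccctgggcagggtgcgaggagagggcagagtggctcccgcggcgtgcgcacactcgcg
Syn1, chrX:20920919-20921168 (- strand): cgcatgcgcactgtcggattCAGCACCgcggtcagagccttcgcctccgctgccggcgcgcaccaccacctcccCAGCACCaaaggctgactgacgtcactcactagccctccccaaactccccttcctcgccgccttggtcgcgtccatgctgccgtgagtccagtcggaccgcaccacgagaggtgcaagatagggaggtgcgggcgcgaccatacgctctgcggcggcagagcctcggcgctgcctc
Tubb3, chr8:123411303-123411552 (+ strand): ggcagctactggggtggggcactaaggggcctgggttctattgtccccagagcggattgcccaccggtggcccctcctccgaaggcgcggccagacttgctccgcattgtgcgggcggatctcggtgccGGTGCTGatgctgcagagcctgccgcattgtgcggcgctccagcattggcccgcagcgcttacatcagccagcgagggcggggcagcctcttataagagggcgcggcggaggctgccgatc

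The joined element is CAGCACC followed by any 2 bases and GGACAG, and it holds both shorter motifs. Read in exact letters on both strands, it was in 0 of 54 member windows and 0.0335% of all 32851 windows of that length. Near matches were not counted. In the Syn1 window the first CAGCACC is followed by 2 bases and GGTCAG, which differs from GGACAG in a single letter. CAGCACC was in 3 member windows, those of Scg2, Syn1 and Tubb3, and in 5.73% of all windows. GGACAG was in 14 member windows of 11 genes and in 18.7% of all windows. Gabra4 held neither part, and Gabrb1 held GGACAG 124 bases before its first start. A match in these letters describes the sequence only, and REST elements often lie outside such windows. The Gabra4 window held 12 CG pairs, the first Gabrb1 window 18 and the second Gabrb1 window 6, beside a median of 6 over all windows.

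Of 9 synaptic vesicle genes, 3 were above background. Syn1, which encodes the vesicle-coating protein synapsin I, read 232 and 192 in knockouts and 125 and 98.8 in controls. The groups did not overlap, and the difference of 0.77 ± 0.24 was nearly equal within the numbers, at 0.78 and 0.77. Stx1a, which encodes the membrane fusion protein syntaxin 1A, differed by 0.17 ± 0.23. Cplx1, the complexin gene, differed by 0.45 ± 0.45, and its arrays parted more by number, with 215 and 79.4 in knockouts and 144 and 52.5 in controls.

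Among cytoskeletal genes, Tubb3, which encodes the neuronal tubulin used as a marker of young neurons, read 165 and 210 in knockouts, against 483 and 322 in controls. The groups did not overlap, and the difference was -1.08 ± 0.31, with -1.57 and -0.59 within numbers. Map2, which encodes a microtubule protein of dendrites, read 338 and 385 in knockouts and 227 and 220 in controls (0.60 ± 0.26). The 2 microtubule genes thus lay on opposite sides. Nes, the gene of the progenitor intermediate filament nestin, read 3521 and 2247 in knockouts and 2484 and 2263 in controls, with overlapping groups.

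L1cam, an X-linked gene for an axonal adhesion protein, read 595 and 283 in knockouts and 131 and 118 in controls. Both knockout arrays exceeded both controls, and the difference of 1.61 ± 0.35 was 2.13 within number 1 and 1.08 within number 2. Its second probe set was under background on all arrays. Ncam1, the gene of another adhesion protein of the same superfamily, read 3412 and 2967 in knockouts and 3194 and 2542 in controls (0.16 ± 0.22). Of its 6 probe sets above background, 1 was higher and 5 were lower. Bdnf, a neurotrophin gene, read 345 and 699 in knockouts and 508.5 and 929 in controls. It was lower within each number, by -0.60 and -0.36, while the numbers stood further apart than the genotypes, so its groups overlapped (-0.48 ± 0.48).

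REST itself and its partner did not stand among the large differences. Rest read 980 and 864 in knockouts and 912 and 759 in controls, a difference of 0.17 ± 0.23, and its second probe set above background gave -0.07. Rcor1 read 1377 and 1478 in knockouts and 1918 and 1758 in controls, a difference of -0.34 ± 0.21, and its 3 probe sets were all lower, from -0.58 to -0.09. Over all 22 members above background, the sign was the same within both numbers for 19. No share of all genes was at hand beside that count, and the choice of members used these values, so nothing is read from it. Stmn1 and Msi2 had opposite signs, and Nes differed by 0.53 within number 1 and 0.00 within number 2.

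**Figure D4:**
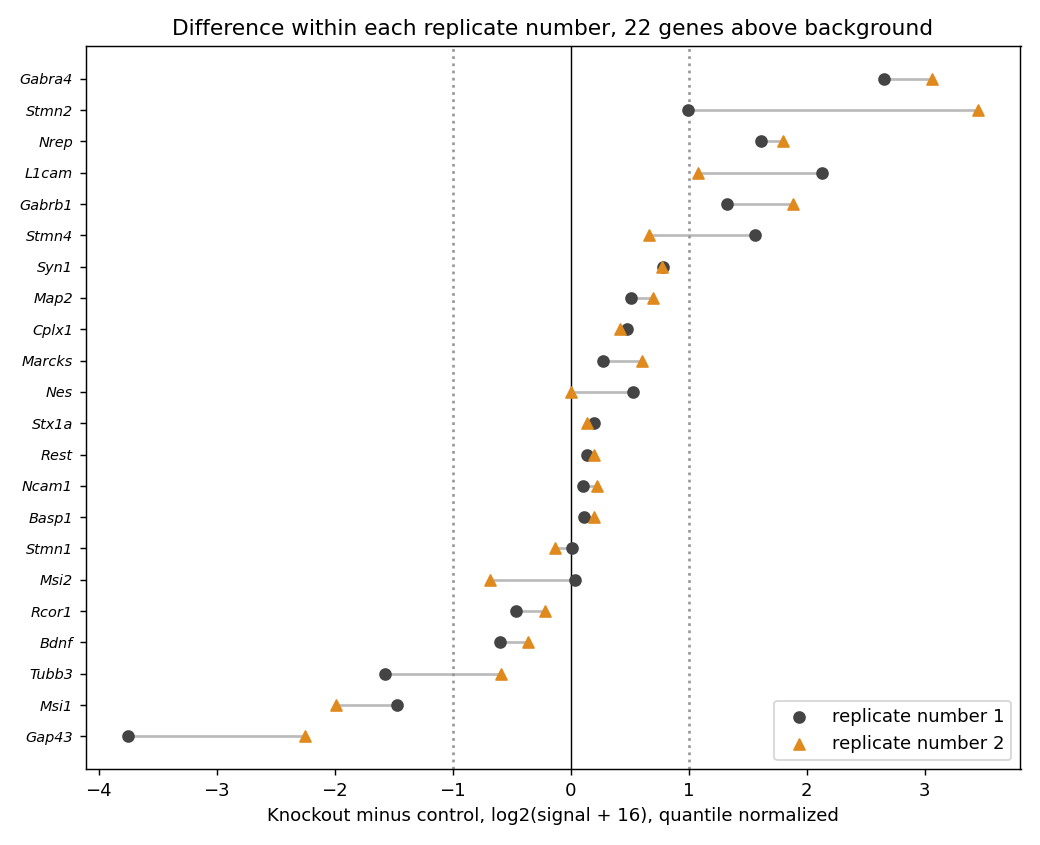
Knockout minus control difference in log2(signal + 16) within replicate number 1 (circles) and number 2 (triangles) for the 22 neuronal genes above background, with dotted lines at a 2-fold difference. Gap43 lies lowest at -3.75 and -2.25, and Stmn2 has the widest gap between the numbers, 0.99 against 3.45.

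Another 6 lists of the same kinds held 127 genes, of which 112 had a probe set and the 63 past the level filter were tested. With limma adjusted over all probe sets 0 rose and 0 fell, where 3 had an unadjusted p under 0.05, and 0.0% of all genes passed. When arrays of the same number were blocked, 4 rose and 0 fell. Of all genes 3.25% rose and 0.984% fell in that model, 4.23% in all. The targeted gene Ehmt2, at -1.49 ± 0.20, passed only in that model (limma adjusted p = 0.227, and 0.000281 with the block). Failing to pass without the block therefore does not show that a gene was unchanged. Sncg, which encodes gamma-synuclein, read 347 and 222.5 in knockouts and 73.1 and 35 in controls (2.06 ± 0.31; limma adjusted p = 0.267, and 0.000995 with the block). Crmp1, a gene of semaphorin signalling in growth cones, read 284 and 280 in knockouts and 98.7 and 89.9 in controls (1.36 ± 0.26; limma adjusted p = 0.417, and 0.00713 with the block). The 2 others were Cplx2, the sister gene of Cplx1, with 1.08 ± 0.28 (limma adjusted p = 0.70, and 0.00983 with the block), and the neuritin gene Nrn1 with 0.64 ± 0.34 (limma adjusted p = 0.999, and 0.0133 with the block).

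Of 20 REST corepressor genes 18 were measured, all above background, and 0 passed in either model. Their median difference was -0.07, and 6 of the 18 were positive. Those with the smallest p were Rcor3 (0.43 ± 0.25), Ehmt1, which encodes the G9a partner GLP (-0.33 ± 0.22), Cdyl (-0.31 ± 0.23) and Hdac1 (-0.20 ± 0.16), each with a limma adjusted p of 0.999. The probe sets of Rcor3 disagreed, and its second brightest gave -0.38. Of the other GABA genes 7 of 17 were above background, and the receptor scaffold gene Gphn differed by 0.09 ± 0.26. The neural transcription factor genes Sox2, Sox4, Sox11 and Zeb2 were above background and 0 of them passed in either model at the brightest probe set. Probe sets of Sox4 and Zeb2 disagreed. Dimmer Sox4 probe sets above background gave -1.40 to 0.22, beside -0.20 at the brightest. Those of Zeb2 gave -0.45 to 0.16, beside 0.75. Neurod1, Neurog2 and Pax6 were under background. Of the other cytoskeleton and adhesion genes 6 were tested, and 0 passed in either model. Scg5, a chaperone gene of secretory granules, and Nrcam, an axonal adhesion gene, lay below the level filter and were singled out with their values known. Scg5 read 88 and 135 in knockouts and 32.5 and 15.7 in controls, at least 1.83-fold higher, and Nrcam read 101.4 and 78.1 in knockouts and 18.8 and 26.7 in controls, at least 1.56-fold higher.

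Markers of Schwann cells and glia, cells of the nerves that run through brown fat, were read beside these genes. Of 11 markers 9 had a probe set and 0 of these were at 0 signal units on all arrays. Their summed signal was 810 to 2378 in knockouts and 349 to 783 in controls, and all 6 tested markers had positive differences, with a median of 0.91. Without the block 0 of them passed, and with it 2 rose, Ngfr and Foxd3. Gfap differed by 0.25 ± 0.39, with -0.36 and 0.86 within numbers 1 and 2 and overlapping groups. S100b and Egfl8 were under background on every array, and Cdh19 exceeded it on knockout array 1 alone. Ngfr, the nerve growth factor receptor gene, read 724.5 and 190 in knockouts and 118 and 17.7 in controls (2.55 ± 0.73; limma adjusted p = 0.824, and 0.00019 with the block). The 2 other Ngfr probe sets were above background in neither group, with differences of -0.84 and 0.75. Erbb3, the neuregulin receptor gene, read 511 and 77.7 in knockouts and 95.4 and 46.1 in controls. Sox10, the master regulator of Schwann cells, read 274 and 96.8 in knockouts and 140 and 83.9 in controls at its brightest probe set (0.49 ± 0.40), and 506 and 97.6 in knockouts against 26.2 and 8 in controls at the next. Both control values of that probe set were under background, so it was at least 3.83-fold higher in knockouts. Knockout array 1 was highest for these 3 genes, as it was for L1cam, Stmn4, Gabra4 and Gabrb1. It was also highest for Stmn1, Marcks, Msi2, Syn1, Stx1a, Cplx1, Ncam1, Nes and Rest. Not highest there were Stmn2, Gap43, Nrep, Basp1, Msi1, Tubb3, Map2, Bdnf and Rcor1. That array also had the highest median, 78 signal units, and the highest background, 85.7. The preadipocyte marker Dlk1 was lowest on that array, with 1690 and 4882 in knockouts and 5421 and 5238 in controls (-0.92 ± 0.44; limma adjusted p = 0.999). Over the 8 preadipocyte markers tested the median difference was 0.05, 5 were positive and 0 passed in either model, and their list summed to 50277 and 53273 in knockouts and 48756 and 46420 in controls. Summed endothelial markers were 116 to 289 in knockouts and 47 to 124 in controls. Of these 5 markers only Kdr was above background, and 0 passed the level filter. Summed leukocyte markers were 772 to 1084 in knockouts and 819 to 900 in controls, with 4 of 8 above background. The part of such cells in the differences of neuronal genes was not tested, and in these bulk samples more cells of a type and more RNA per cell cannot be told apart.

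**Figure D5:**
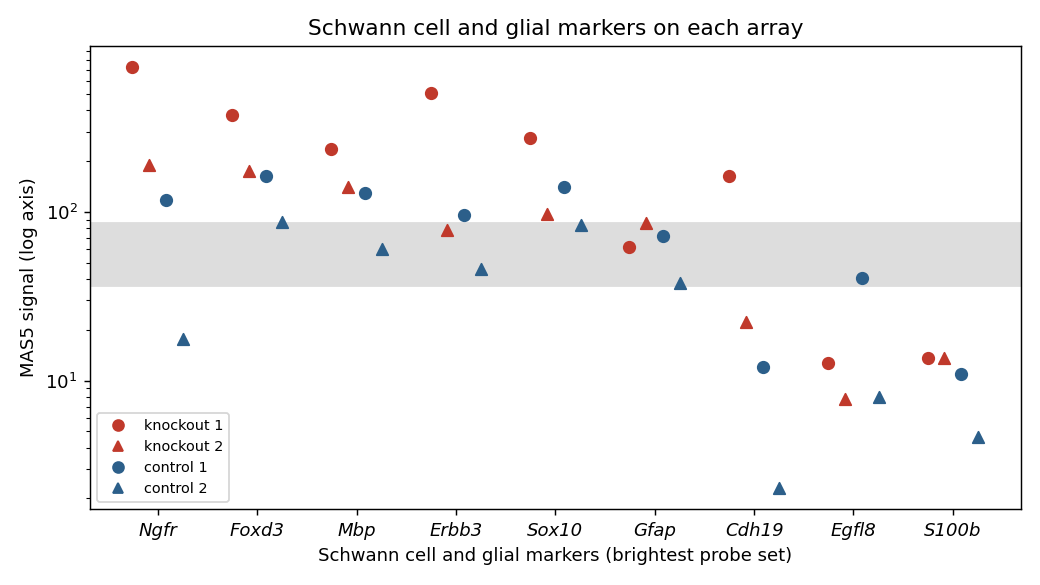
Deposited signal (log axis) of the 9 Schwann cell and glial markers with a probe set, with 4 points per gene (red, knockout; blue, control; circles, number 1; triangles, number 2). Knockout array 1 is highest for Ngfr at 724.5 and Erbb3 at 511, and the grey band spans background at 36.5 to 85.7.

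Neighbouring genes of the members with large differences were read by the same rule. Around Gap43, Lsamp, 4932412D23Rik, Drd3 and Tex55 were under background, Zbtb20 differed by 0.21 ± 0.31 (limma adjusted p = 0.999), and Igsf11 read 192 and 604 in knockouts and 105 and 189 in controls (1.12 ± 0.64; limma adjusted p = 0.999, and 0.028 with the block). The Igsf11 groups overlapped after normalization and not on the deposited signals. Beside Stmn2, the Notch target gene Hey1 read 120 and 167 in knockouts and 73.7 and 20 in controls (1.38 ± 0.46; limma adjusted p = 0.994, and 0.0925 with the block). Within number 2 its difference was 2.28 and within number 1 it was 0.49, and Stmn2 likewise had its larger difference in number 2. The Hey1 value of 20 on control array 2 lay under that array's background of 36.5, so the size of the 2.28 is uncertain. Tpd52 differed by 0.58 ± 0.19 (limma adjusted p = 0.946, and 0.0392 with the block), and the 4 other neighbours of Stmn2, Pkia, Zc2hc1a, Il7 and Mrps28, passed in neither model. Around Msi1, 5 of the 6 neighbours were tested and 0 passed in either model, with differences from -0.38 for Sirt4 to 0.05 for Cox6a1.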

How the data were processed

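Total RNA of 4 samples was hybridized to Affymetrix mouse arrays. The authors deposited 1 signal intensity per probe set and array on a linear scale, made with MAS5 per the submitters' processing notes. The software version was not stated. Every array had a 2% trimmed mean of 500.

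Of 45101 probe sets, 64 controls were left out. Platform annotation gave 34945 probe sets 1 symbol, 932 several and 9160 none, and 34741 matched RefSeq GRCm38.p6 by gene ID. Signals were quantile normalized and taken as log2(signal + 16). The 22519 probe sets at or above the 50th percentile were fitted with limma 3.58.1 (R 4.3.3, lmFit, eBayes with trend), with Benjamini-Hochberg adjustment over all of them at 0.05. A gene was given by its brightest probe set. The number of arrays limits the precision. With 2 arrays a group, the smallest p of an exact two-sided permutation test is 0.333.

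Deviations from the group means of same-numbered arrays had a correlation of 0.603. Xist read 9810 and 58 in knockouts 1 and 2 and 11049 and 41.8 in controls 1 and 2, so the numbers were taken, from the data and not from the labels, to pair arrays of 1 origin. The fit without the block is the main one. The SEs in the text come from it and include the gap between the numbers. With the block the SEs of members were smaller, such as 0.12 for Marcks and 0.18 for Bdnf. That model leaves 1 residual degree of freedom.

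The members and lists were chosen with earlier results of these data known. Named were the 4 markers Gap43, Gabra4, Stmn2 and Msi1, Rest, Rcor1, members above background at least 2-fold apart without overlap, up to 4 genes per list by smallest p, and 3 neighbours on each side of the markers. Other members and markers were singled out with their values known. The alternatives tried were other pseudocounts (1 and 64), other scalings, filters, background levels and probe set summaries, no trend, the block, and leaving out each array.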

Additional observations from a re-analysis of the deposited data

How the results depend on the processing

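The count of 8 members at least 2-fold apart was 6 to 9 under the other settings that kept all 4 arrays, with 1 exception. The 75th percentile filter left 10 members with 1 such gene, Nrep. The share of all genes past the same rule moved too. It was 2.75% in the main setting, 3.11% with a pseudocount of 1, 1.72% with 64 and 1.04% with the 75th percentile filter. The members' median of 0.21 was 0.18 with a pseudocount of 1, 0.17 with 64, 0.12 with median centring (where the median of all genes was -0.094), 0.17 without the filter, 0.16 with the 75th percentile filter, 0.14 with the mean over probe sets, and 0.07 to 0.35 without 1 array. The 22 members above background were 30 at the 90th percentile of receptor probe sets and 22 at the 99th. The share of all genes above those other levels is not given here. Leaving out 1 array relaxes the rule to a single array in that group, so such counts are left out. The replicate block gave 4 calls among the other lists, against 0 without it and 0 under each other setting, and it changed no difference of a member. Of 329 member differences recomputed, 314 moved by less than the spread between replicates and 15 by more. The filter, background, block and trend settings cannot move a difference. Leaving out 1 array moves it only within the gap between the replicates of that group, so the 314 is no measure of robustness. Of the members at least 2-fold apart, 0 changed sign. Their groups did not overlap by the rule that picked them, so leaving out 1 array could not turn their sign. It turned the sign of 7 other members, Stmn1, Marcks, Msi2, Cplx1, Ncam1, Nes and Bdnf, whose groups overlapped. That contrast is thus no measure of robustness either. Stmn2 was 2.95 without knockout 1 and 1.49 without knockout 2, Gabrb1 was 2.20 without control 1 and 1.0 without control 2, and Gabra4 was 3.73 with a pseudocount of 1 and 1.80 with 64. A larger pseudocount shrinks the difference of a dim gene, and leaving out 1 array shifts a difference with the gap inside that group. Why arrays of a group differed was not tested. Dim genes are limited by signal over background, which was highest on knockout array 1.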
